A study of Mus musculus with 8 samples.

Results

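The signal that links damaged photoreceptors to glia through endothelin-2, leukemia inhibitory factor (LIF) and STAT3 was followed through 10 genes in the Lpcat1 KO retina. They were the ligand Edn2 and its receptors Ednra and Ednrb, the cytokine Lif with the receptor chains Lifr, Il6st and Osmr, the transcription factor Stat3, and its targets Socs3 and Gfap. The genes were chosen by name, with earlier results of these data known, and probes were assigned to them through RefSeq transcript accessions. Among 20018 named genes on the array they were represented by 16 of the 55681 probes. Of these, 14 probes of 9 genes were tested, among 33972 tested probes and 14939 tested genes in all. The Lif probe and 1 of 3 Gfap probes did not pass the filter on dim probes, which asked that each of the 4 arrays of a genotype, either WT or KO, show the probe well above background.

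Total RNA from the whole retina of 2-week-old mice was hybridised in 1 colour to Agilent arrays, 1 array per sample, with 4 Lpcat1 WT and 4 Lpcat1 KO samples. Lpcat1 encodes lysophosphatidylcholine acyltransferase 1, which converts lysophosphatidylcholine to phosphatidylcholine, and the comparison asked how the transcripts of the retina differ without it. Both groups were labelled C57BL/6. The KO was global. Its background was originally C57BL6/N, which carries the rd8 allele of Crb1, and C57BL6/J was bred in so that no animal studied had 2 copies of it. The labels do not tell whether the 4 samples of a genotype came from separate animals, so p-values measure only the spread between these samples. Since the slide carried the WT arrays in one row and the KO arrays in the other, row and genotype cannot be told apart. The 75th percentile of the signal was 638 to 738 per array, 33113 to 36373 probes were well above background, and precision is limited by having 4 arrays per genotype. The Lpcat1 probe was lower on every KO array (-0.46 on the log2 scale, SE 0.04, limma adjusted p = 0.0036) but kept a signal, and its place relative to the deleted part is not known here. As a check of the tissue, Sag, which encodes the arrestin of rods, was at levels between 7.79 and 7.87 in WT and between 7.42 and 7.49 in KO.

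Endothelins are short secreted peptides that act through a pair of G protein-coupled receptors, and in the retina Edn2 is known as a transcript that stressed or injured photoreceptors make. LIF binds its receptor chain LIFR together with gp130, the product of Il6st, a signalling chain shared by the interleukin-6 family, while oncostatin M receptor (Osmr) pairs with gp130 as well. Kinases of the JAK family bound to these chains phosphorylate STAT3, which enters the nucleus and induces genes such as Socs3, a feedback inhibitor of the same receptors, and Gfap, the intermediate filament of astrocytes and of reactive Müller glia. Microarrays measure transcript levels, so phosphorylation of STAT3 and release of the peptides were not measured.

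At the ligand, at 1 receptor chain and at the transcription factor, transcripts were higher in KO. Edn2, Osmr and Stat3 were called higher, which is 3 of the 9 tested genes, against 2.2% of all tested genes, and 0 of the 9 were called lower, against 1.77%. A gene was called when a probe of it differed by more than 1.2-fold with a limma adjusted p under 0.05. The median difference over the 9 genes was 0.17 on the log2 scale, against -0.02 over all tested genes. Of the 14 tested probes, 5 had all KO arrays above all WT arrays, against 6.04% of all tested probes, and 1 had all KO arrays below, against 11.4%. Ednra, Ednrb, Lifr, Il6st, Socs3 and Gfap were not called. Because the genes were chosen with earlier results of these data known, these shares are a description. In whole retina, a change in the number of cells of a type and a change in the RNA per cell cannot be told apart.

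The 250 bases before the transcription start of the 3 called genes are shown because the results turn on them, with those of Socs3 because it is the best known target of STAT3 in the group. They come from RefSeq on GRCm38.p6, at chr4:120160956-120161205 on the plus strand for Edn2, and on the minus strand at chr15:6874314-6874563 for Osmr, chr11:100939541-100939790 for Stat3 and chr11:117969367-117969616 for Socs3. Each is written 5′ to 3′ along its gene, and capitals mark a match to the STAT motif.
Edn2: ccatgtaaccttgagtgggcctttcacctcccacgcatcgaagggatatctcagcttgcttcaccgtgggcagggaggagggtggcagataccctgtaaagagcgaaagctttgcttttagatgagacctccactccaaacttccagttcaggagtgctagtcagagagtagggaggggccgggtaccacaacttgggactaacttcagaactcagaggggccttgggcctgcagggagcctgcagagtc
Osmr: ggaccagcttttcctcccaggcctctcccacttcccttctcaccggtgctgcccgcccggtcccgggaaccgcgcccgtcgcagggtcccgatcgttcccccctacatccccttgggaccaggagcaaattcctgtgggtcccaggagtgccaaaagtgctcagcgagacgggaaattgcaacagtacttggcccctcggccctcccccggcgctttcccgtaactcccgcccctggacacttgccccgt
Stat3: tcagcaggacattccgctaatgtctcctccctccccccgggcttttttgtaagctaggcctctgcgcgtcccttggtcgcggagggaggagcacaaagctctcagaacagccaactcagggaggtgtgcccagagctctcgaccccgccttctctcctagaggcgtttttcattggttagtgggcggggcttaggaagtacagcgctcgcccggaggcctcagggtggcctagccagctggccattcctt
Socs3: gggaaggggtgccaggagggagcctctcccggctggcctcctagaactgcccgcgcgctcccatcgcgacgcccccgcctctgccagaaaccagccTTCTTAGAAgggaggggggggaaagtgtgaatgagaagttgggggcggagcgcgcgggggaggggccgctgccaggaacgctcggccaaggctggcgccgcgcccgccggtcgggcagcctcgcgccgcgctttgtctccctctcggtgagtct
The STAT motif was searched as TTCNNNGAA and the AP-1 motif, which Fos and Jun proteins bind, as TGANTCA. Each reads the same on both strands. The Socs3 sequence held TTCTTAGAA, starting 154 bases before the start, and the Edn2, Osmr and Stat3 sequences held neither motif. Of all 10 members, 1 held a STAT match and 1, Lif, an AP-1 match (TGACTCA, 228 bases before the start). The members are counted here as genes, although Lifr had more than 1 promoter. Over 32851 promoters of the same length, 7.02% held a STAT match and 6.75% an AP-1 match. A match is a description of the letters only.

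Edn2 encodes the ligand endothelin-2. Its levels, given throughout as log2 signal minus the log2 of the array's 75th percentile, were -4.81, -4.35, -3.90 and -4.12 on WT arrays 1 to 4, and -2.95, -1.63, -2.66 and -2.32 on KO arrays 1 to 4. Every KO array was above every WT array, and KO replicate 2 stood highest. The difference was 1.90 (SE 0.30, 95% interval 1.22 to 2.59, limma adjusted p = 0.0164), the widest interval among the tested members. The probe was dim in WT. Its processed signals lay between 23.9 and 46.4 in WT and between 84.8 and 238 in KO, while the dimmest probe that still counted as well above background had a signal of 17.8 to 28.1, depending on the array. With a normexp background correction, which compresses dim signals, the difference was 1.14 and still called. Over all settings tried the adjusted p ran from 0.00465 to 0.0593. It exceeded 0.05 without WT replicate 2 (0.0559) or KO replicate 4 (0.0507), and with dim probes kept in the test (0.0593).

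**Figure D1:**
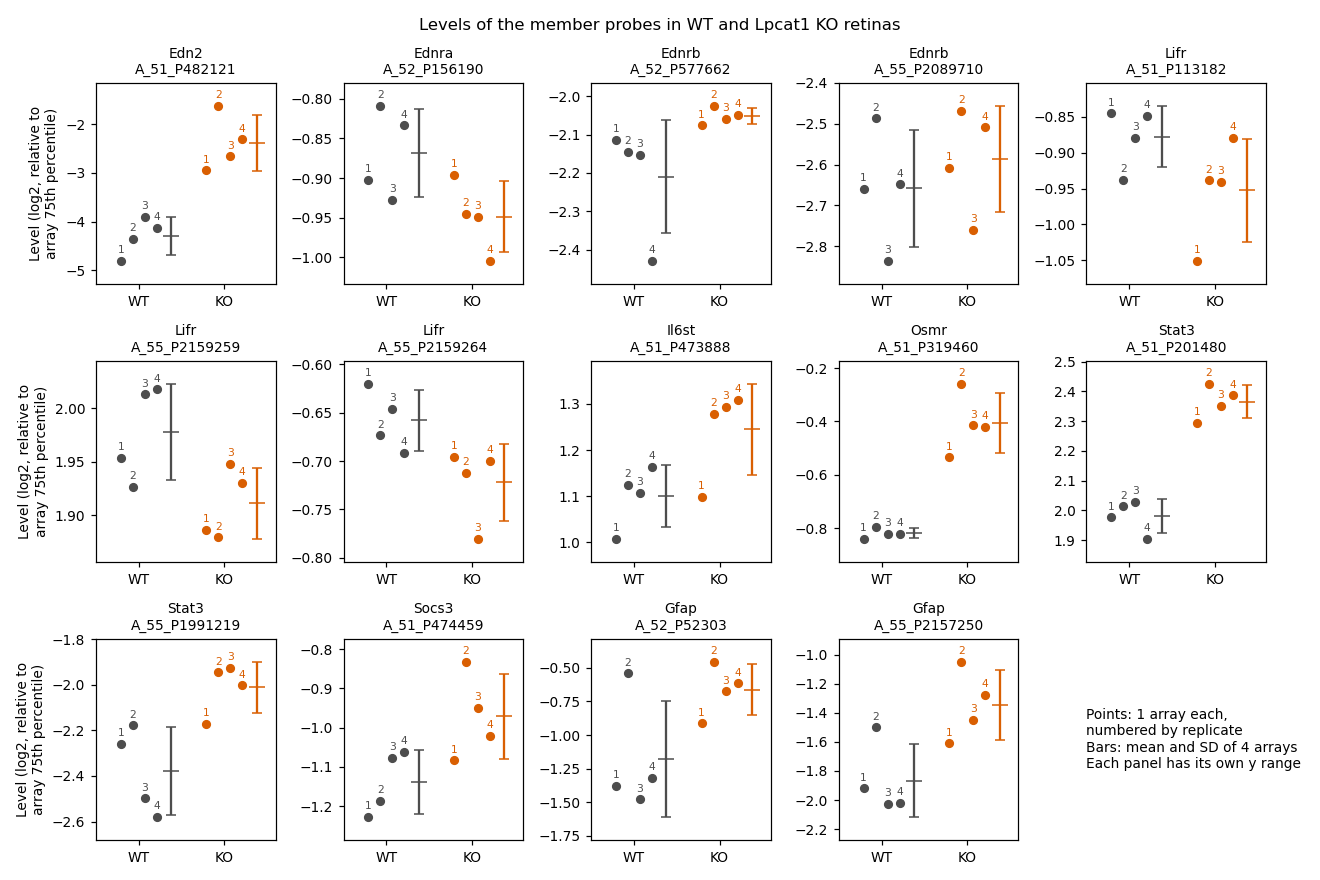
Level of each tested probe of the 10 genes on the 4 WT and 4 KO arrays (y axis, log2 signal relative to the array's 75th percentile, with its own range in each panel). Points are arrays numbered by replicate, and bars are the mean and SD of 4 arrays. Edn2, Osmr and the 10-spot Stat3 probe show KO points well clear of the WT points, while WT replicate 2 reaches the KO points of both Gfap probes.

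Neither receptor of the endothelins was called. Ednra, the receptor of vascular smooth muscle and pericytes, was at -0.90, -0.81, -0.93 and -0.83 in WT and -0.90, -0.95, -0.95 and -1.005 in KO. These ranges overlapped, with a difference of -0.08 (SE 0.04, 95% interval -0.18 to 0.02, limma adjusted p = 0.306). Ednrb, the receptor of glial and endothelial cells, had a pair of probes. The probe A_52_P577662 was at -2.11, -2.14, -2.15 and -2.43 in WT and -2.08, -2.03, -2.06 and -2.05 in KO. The groups did not overlap, WT replicate 4 stood low, and the difference was 0.16 (SE 0.07, limma adjusted p = 0.223), or 0.08 without that array. The probe A_55_P2089710 was at -2.66, -2.49, -2.84 and -2.65 in WT and -2.61, -2.47, -2.76 and -2.51 in KO. Here the groups overlapped (0.07, SE 0.09, limma adjusted p = 0.665), the difference was 0.01 without WT replicate 3 and 0.13 without KO replicate 3, and normexp turned the sign (-0.00928).

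Of 8 listed genes of the endothelin system, the members included, 6 were tested, and only Edn2 was called. Edn1, the vascular endothelin, had a difference of 0.20 (SE 0.05, limma adjusted p = 0.0671), with KO levels of -3.19 to -3.03 and WT levels of -3.36 to -3.19. Its groups met at the edge, where the highest WT array and the lowest KO array coincided to 2 decimals. Edn3 was well above background on 0 arrays and was not tested. The median difference of the 6 tested genes was 0.15.

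The cytokine Lif could not be followed. Its probe, A_66_P134488, stayed near background on all 8 arrays and was well above it on 0. Its processed signals were 12.7, 11.5, 15.4 and 9.04 in WT and 8.29, 12.45, 12.47 and 14.2 in KO, all below the lowest signal that counted as well above background on the same array, so no fold change is given. These signals bound the level of the transcript at this probe and do not show its absence. Of the 11 listed cytokines that signal through gp130, 8 were tested and 0 were called by limma in either direction. Il6 was well above background on 0 arrays, Il11, the gene of interleukin-11, had a difference of -0.15 (SE 0.11, limma adjusted p = 0.458), and Cntf, the gene of ciliary neurotrophic factor, one of 0.19 on both of its probes (SE 0.10 for each, limma adjusted p = 0.297 and 0.279). The median of this list was -0.08.

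Of the receptor chains, only Osmr was called. Lifr, the chain that binds LIF, had 3 probes with small negative differences, and none was called. The first, A_55_P2159259, was at 1.95, 1.93, 2.01 and 2.02 in WT and 1.89, 1.88, 1.95 and 1.93 in KO. The groups overlapped and differed by -0.07 (SE 0.04, limma adjusted p = 0.342). The probe A_51_P113182 ranged from -0.94 to -0.85 in WT and from -1.05 to -0.88 in KO (-0.07, SE 0.05, limma adjusted p = 0.379), with a difference of -0.04 without KO replicate 1. The probe A_55_P2159264 had all KO arrays (-0.78 to -0.70) below all WT arrays (-0.69 to -0.62), with a difference of -0.06 (SE 0.04, limma adjusted p = 0.343). Il6st, the shared chain gp130, was at 1.01, 1.13, 1.11 and 1.16 in WT and 1.099, 1.28, 1.29 and 1.31 in KO. KO replicate 1 lay among the WT arrays and the other KO arrays above them, and the difference of 0.14 was not called (SE 0.06, limma adjusted p = 0.188).

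Osmr is the chain that binds oncostatin M. Its levels were -0.84, -0.80, -0.82 and -0.82 in WT and -0.53, -0.26, -0.41 and -0.42 in KO. The WT arrays lay within 0.05 of each other, every KO array was above them, and KO replicate 2 was again the highest. The difference was 0.41 (SE 0.06, 95% interval 0.28 to 0.55, limma adjusted p = 0.0124). The call was kept without each array in turn and was lost with dim probes kept in the test (adjusted p = 0.0516, with a range of 0.00113 to 0.0516 over all settings) and at a minimum fold change of 1.5. Osm, its cytokine, whose value was looked up after the choice of names, had a difference of 0.17 (SE 0.10, limma adjusted p = 0.346).

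Of 7 listed receptor genes of this family, 6 were tested, Osmr alone was called, and the median was 0.15. Il6ra, which encodes the chain that binds interleukin-6, had all KO arrays above all WT arrays. Its difference of 0.39 missed the threshold (SE 0.20, limma adjusted p = 0.290). KO replicate 4 stood at -1.35 with the other KO arrays between -2.33 and -2.17. Il11ra1, the chain for interleukin-11, had a difference of 0.06 (SE 0.05, limma adjusted p = 0.459).

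Stat3 encodes the transcription factor that receives these signals. Its probe A_51_P201480 is printed on 10 spots per array, and the mean levels were 1.98, 2.01, 2.03 and 1.90 in WT and 2.29, 2.42, 2.35 and 2.39 in KO. The spots of 1 array had SDs of 0.04 to 0.06, the highest WT spot was at 2.10 and the lowest KO spot at 2.18, so even single spots did not overlap. The difference was 0.38 (SE 0.05, 95% interval 0.28 to 0.49, limma adjusted p = 0.00787). Of the members it had the smallest adjusted p, which stayed under 0.05 in every setting tried (0.000164 to 0.0445), although its fold change of 1.30 did not reach a minimum of 1.5.

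The other Stat3 probe, A_55_P1991219, gave a like difference with a wider spread. It was at -2.26, -2.18, -2.498 and -2.58 in WT and -2.17, -1.95, -1.93 and -2.003 in KO. The groups did not overlap, but KO replicate 1 lay only just above WT replicate 2. The difference was 0.37 (SE 0.10, limma adjusted p = 0.0708), not called, and called with a trended and robust variance (adjusted p = 0.0301, with a range of 0.0301 to 0.163 over all settings).

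**Figure D2:**
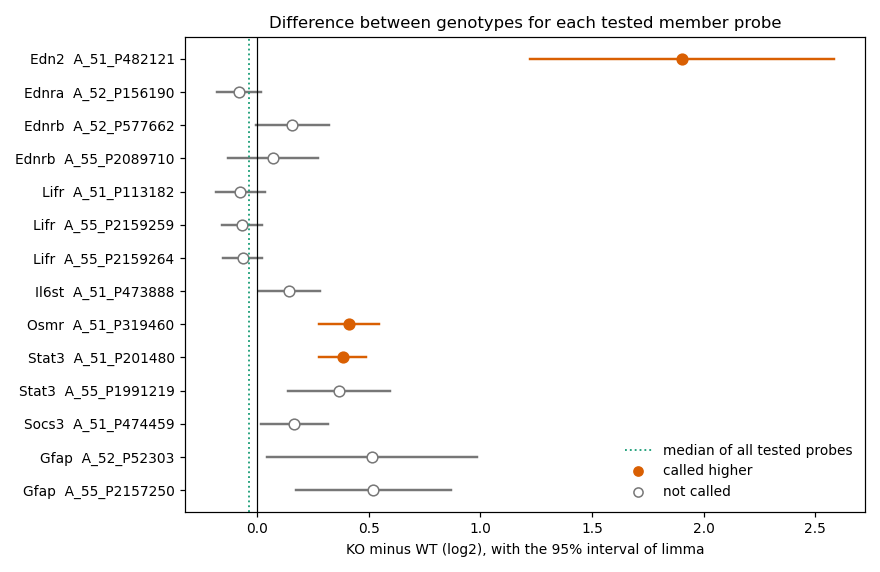
KO minus WT difference (x axis, log2) of each tested probe of the 10 genes (y axis), with the 95% interval of limma as a bar. Filled orange points were called higher, open points were not called, the solid line marks 0 and the dotted line the median of all tested probes (-0.04). Edn2 lies at 1.90, and Osmr and Stat3 near 0.4 with intervals clear of 0.

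None of the JAK kinases that act on STAT3 was called. Of 11 listed kinases and STAT factors, 10 were tested, Stat3 alone was called, and the median was 0.08. The differences were -0.05 for Jak1 (SE 0.05, limma adjusted p = 0.574), 0.03 for Jak2 (SE 0.04, 0.708), 0.09 for Jak3 (SE 0.09, 0.592) and 0.02 for Tyk2 (SE 0.09, 0.928). Each of these 4 genes had overlapping groups.

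Socs3, the feedback inhibitor induced by STAT3, was at -1.23, -1.19, -1.08 and -1.06 in WT and -1.08, -0.83, -0.95 and -1.02 in KO. KO replicate 1 lay among the WT arrays and the other KO arrays above them. The difference was 0.17 (SE 0.07, 95% interval 0.02 to 0.32, limma adjusted p = 0.171) and was not called in any setting tried. Of its relatives, Socs1 had a difference of -0.10 (SE 0.08, limma adjusted p = 0.494), Socs2 of 0.06 (SE 0.05, 0.461) and Socs4 of -0.12 (SE 0.08, 0.412). Among the 16 listed inhibitors of JAK and STAT signalling, all tested, 1 was called, and the median was -0.04. This was Ptpn6, which encodes the phosphatase SHP-1 of blood and immune cells. It rose by 0.31 (SE 0.07, limma adjusted p = 0.0387), a call lost in 7 of the 8 fits that left out 1 array (adjusted p up to 0.0951, without WT replicate 2), and lost under normexp (0.18).

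Gfap did not pass the test, although 3 of the 4 WT arrays lay below every KO array. The probe A_52_P52303 was at -1.38, -0.54, -1.48 and -1.32 in WT and -0.91, -0.46, -0.67 and -0.61 in KO. WT replicate 2 lay among the KO arrays. The difference was 0.51 (SE 0.20, 95% interval 0.05 to 0.98, limma adjusted p = 0.174), and without WT replicate 2 it was 0.73 and called (adjusted p = 0.0380, with a range of 0.0380 to 0.352 over all settings).

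The probe A_55_P2157250 had the same array out of place. It was at -1.92, -1.50, -2.03 and -2.02 in WT and -1.61, -1.05, -1.45 and -1.28 in KO, so that KO replicate 1 lay below WT replicate 2. The difference was 0.52 (SE 0.15, limma adjusted p = 0.0837), called with a trended and robust variance (adjusted p = 0.0498, with a range of 0.0498 to 0.186). The third probe, A_55_P2157245, was well above background on 2 WT and 3 KO arrays and was not tested. Its processed signal lay between 15.8 and 29.2 in WT and between 25.0 and 38.4 in KO.

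The markers of the glia that make Gfap were read beside it. Of 6 listed astrocyte markers, 5 were tested and 0 were called by limma, with a positive difference for 4 of 5. Their summed level, on a linear scale in units of the array's 75th percentile, was 6.54 to 7.55 in WT and 7.85 to 8.22 in KO, and WT replicate 2 was the highest of the WT arrays. Gjb6 was well above background on 0 arrays. Of 10 Müller glia markers, all tested, Clu and Kcnj10 were called higher and 9 had a positive difference, and the summed level was 264.9 to 277.7 in WT and 313 to 317 in KO. The part of these differences in the Gfap values was not tested.

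Among 21 listed targets of STAT3, 19 were tested, 6 were called higher and 0 lower, against 2.2% and 1.77% of all tested genes, and the median was 0.17, against -0.02. The list includes the members Osmr, Stat3, Socs3 and Gfap, and Osmr and Stat3 are among the 6 called. Without the members, 4 of 15 tested targets were called higher (Bcl6, Cebpd, Fos and Junb), 0 lower, and the median was 0.06. The list itself was chosen with earlier results of these data known, so the counts with and without members are a description. Cebpd, the gene of a transcription factor of the acute-phase response, rose from levels of 1.03 to 1.21 in WT to 1.81 to 2.19 in KO (0.90, SE 0.08, limma adjusted p = 0.0036). Fos, the AP-1 subunit, rose from between -0.63 and 0.06 in WT to between 1.07 and 1.41 in KO (1.42, SE 0.14, limma adjusted p = 0.00467). Bcl6, the gene of a transcriptional repressor, rose by 0.55 (SE 0.07, limma adjusted p = 0.0105).

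Junb, another AP-1 subunit, rose by 0.58 (SE 0.08, limma adjusted p = 0.0109), and by 0.35 under normexp. The calls of Bcl6 and Junb were lost at a minimum fold change of 1.5 and with the replicate number as a block. Fos and Junb are immediate early genes that many stimuli induce, and both belong to other pathways as well. Bcl3, which encodes a cofactor of NF-κB, had all KO arrays above all WT arrays and missed the threshold (0.31, SE 0.08, limma adjusted p = 0.0686). Pim1, which encodes a kinase, had a difference of 0.04 (SE 0.08, limma adjusted p = 0.814). Over the whole list, 14 of the 19 tested genes had a positive difference, and without the members 10 of 15. Lcn2, added here after its value was seen, had all KO arrays below all WT arrays (-0.23, SE 0.06, limma adjusted p = 0.0693).

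**Figure D3:**
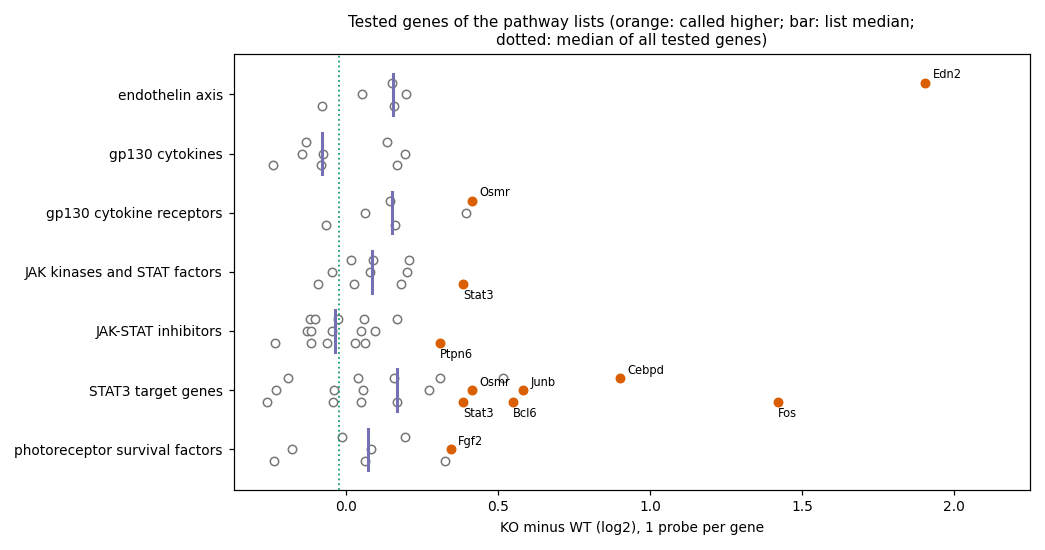
KO minus WT difference (x axis, log2, 1 probe per gene) of every tested gene in the 7 lists of the pathway (y axis), with list medians as vertical bars and the median of all tested genes (-0.02) as a dotted line. The vertical place of a point within its list has no meaning. Orange points are genes called higher, 9 of 69 tested in all, and none was called lower by limma.

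Survival factors of photoreceptors, to which LIF signalling is tied, were the last list. Of its 8 genes, all tested, Fgf2 was called. Fgf2, basic fibroblast growth factor, was at -4.31, -4.30, -4.07 and -4.32 in WT and -3.95, -3.77, -3.89 and -4.02 in KO. The groups did not overlap (0.34, SE 0.07, limma adjusted p = 0.0403), but the call was lost in 7 of the 8 fits that left out 1 array (adjusted p up to 0.107, without WT replicate 2) and under normexp (0.17). The differences were 0.06 for Bdnf (SE 0.09, limma adjusted p = 0.731) and 0.33 for Gdnf (SE 0.19, 0.355), and the median of the list was 0.07. Over all 7 lists, 69 of 78 genes were tested, 9 were called higher and 0 lower, and the median was 0.06. Without the members, 6 of 60 tested genes were called higher, or 10%, against 2.2% of all tested genes, and the median was 0.05. All the lists were chosen with earlier results of these data known, so these shares too are a description.

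The members were then read array by array. KO replicate 1 was the lowest KO array for 10 of the 14 tested probes, a place it held for 27.7% of the 33950 probes with a value on every array, and KO replicate 2 was the highest for 8 of 14, against 18.1%. Both held for 7 probes, those of Edn2, Osmr and Socs3, the tested Gfap probes, the 10-spot Stat3 probe and the Ednrb probe A_52_P577662. In WT, replicate 2 was the highest for 6 of 14 probes, against 18.1% of the same 33950 probes, the tested Gfap probes among them. These probes share the same arrays and the same scaling, so the counts are a description. Of the 8 arrays, KO replicate 2 had the fewest probes well above background (33113) and the highest 75th percentile (738). The part of this in the members' values was not tested.

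**Figure D4:**
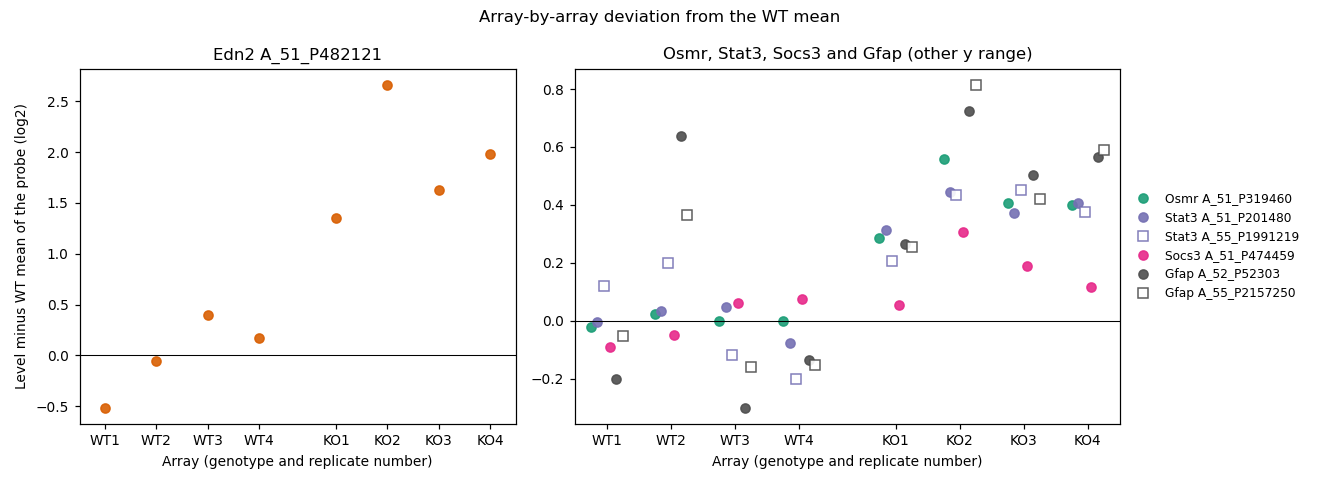
Level minus the WT mean of the probe (y axis, log2) on each array (x axis), for Edn2 on the left and for Osmr, Stat3, Socs3 and Gfap on the right with another y range. Points are single arrays, and points of 1 array are set side by side for clarity. KO replicate 1 lies low and KO replicate 2 high among the KO arrays for most probes, and WT replicate 2 lies high for Gfap.

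The genes whose pattern was most like that of Edn2 were found by the root mean square distance between levels over the 8 arrays, each taken relative to the gene's own WT mean. The nearest were Etnppl (distance 0.37), Cst7 (0.38), Cebpe (0.45), Fos (0.57) and Egr1 (0.57). Etnppl, the gene of an enzyme that breaks down phosphoethanolamine, had WT arrays within 0.07 of its mean and KO arrays 1.47, 1.97, 2.02 and 2.26 above it. Among WT arrays, 1 showed Cst7, which encodes cystatin F, well above background, and 0 showed Cebpe so, so their WT levels, distances and places in this order are uncertain. The genes were chosen for a pattern like that of Edn2, which is high in KO, so these distances are a description.

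Markers of other cell types differed in the same comparison, and their part in the members' values was not tested. Of 10 markers of rods, the main photoreceptors of the mouse retina, all had a negative difference, and those called lower included Nr2e3 and Sag, with a summed level between 1940 and 2003 in WT and between 1642 and 1722 in KO. Of 8 cone markers, Arr3 and Opn1sw were called higher (summed level 207 to 213 in WT, 236 to 247 in KO). Of 11 microglia markers on the array, all had a positive difference and 6 were called higher (Aif1, C1qa, C1qb, C1qc, Trem2 and Tyrobp), with a summed level between 13.3 and 14.4 in WT and between 16.8 and 17.5 in KO. Of 9 endothelial markers, Flt1 was called higher and 7 had a negative difference (summed level 36.8 to 38.3 in WT, 34.9 to 36.4 in KO). Of 6 pigment epithelium markers, 5 were tested and Mitf was called higher, with overlapping sums between 11.03 and 14.1 in WT and between 11.8 and 14.5 in KO.

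The calls of the members held in most of the 23 settings tried. The member genes called higher were Edn2, Osmr and Stat3 in 18 of them, and in the others a call of Edn2, Osmr or Stat3 was lost (4 settings) or Gfap was added (2 settings, 1 of which also lost Edn2). Socs3, Il6st, Lifr, Ednra and Ednrb were not called in any setting.

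**Figure D5:**
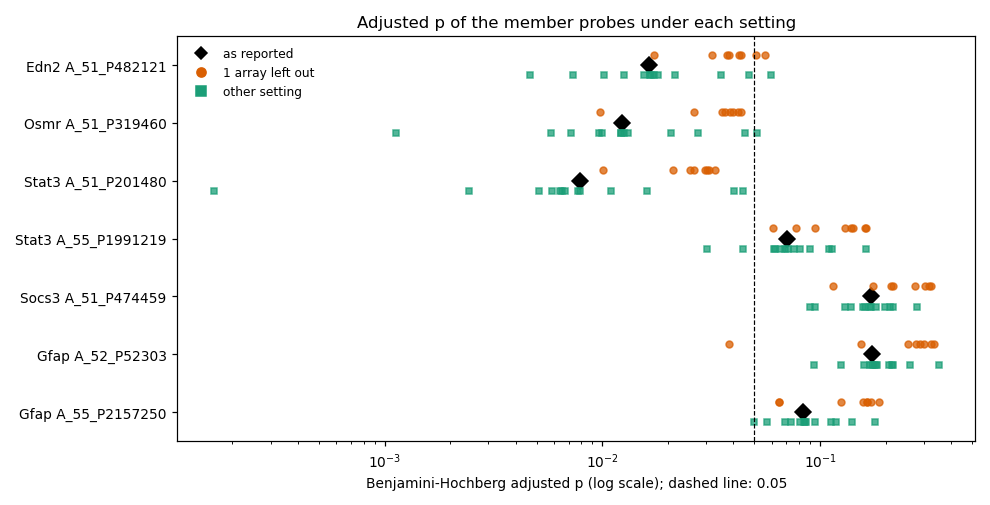
Benjamini-Hochberg adjusted p (x axis, log scale) of the probes of Edn2, Osmr, Stat3, Socs3 and Gfap (y axis) as reported (diamonds), with 1 array left out (circles) and in the other settings (squares). The dashed line is 0.05. The 10-spot Stat3 probe stays left of the line throughout, Edn2 crosses it in 3 settings and Osmr in 1, and Socs3 stays right of it.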

How the data were processed

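Total RNA of 4 WT and 4 KO retinas was labelled with Cy3 and measured on Agilent SurePrint G3 mouse arrays. Per the file headers, the authors quantified scans with Feature Extraction 10.7.1.1, and the deposited scanner files hold background-subtracted, spatially detrended intensity on a linear scale. The deposited series table holds the authors' log2 values after a 75th percentile shift. Set against the levels computed here over 55249 probes printed once, it differed by a constant of 0.12 to 0.15 per array (column medians -3.20 to -3.30) and served as an alternative. All sample columns were used (0 left out).

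Levels were the log2 processed signal minus the log2 75th percentile over 59305 non-control spots. Control spots (3671) and spots flagged as outliers (86 to 147 per array) were left out, and spots of a probe were averaged. No spot was saturated (0 spots). Symbols came from a RefSeq table by accession, used only for names because its assembly differs from that of the array design (mm9). It named 26413 probes. The genotypes were fitted with no covariate by limma (version 3.58.1, R 4.3.3), with p-values adjusted by Benjamini-Hochberg over 33972 probes, after the fit had been tested on simulated data. The genes named were all members with every probe, every called pathway gene, up to 4 uncalled genes per list in list order, called markers and the 5 genes most like Edn2. Some genes under this rule are not reported here. A gene's value is that of its tested probe with the highest mean level. The members and lists were chosen with earlier results of these data known, so no list was tested. Alternatives covered scaling, background correction (normexp, offset 50, on median signals), filters, thresholds, variance models, the methods' t-test, the replicate number as a block and each array left out.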

Additional observations from a re-analysis of the deposited data

Results flagged for a closer look

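Single arrays that stood far from the other 3 of their genotype, by Dixon's test on groups of 4, were sought in 80 groups (40 probes of 31 genes, the members and the named pathway genes), and 7 were found, where chance gives about 1 in 20 groups. Among the members, WT replicate 4 stood low for the Ednrb probe A_52_P577662 (level -2.43) and KO replicate 1 low for Il6st (1.099). Among the other pathway genes, WT replicate 3 stood high for Fgf2 (-4.07), and KO replicate 4 stood high for Il6ra (-1.35) and for the Jak3 probe A_55_P2010912 (-3.22). The Socs2 probe A_55_P1992834 had such an array in both genotypes, with WT replicate 3 at -0.18 and KO replicate 4 at -0.14.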

How the results depend on the processing

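Of 23 settings tried, 21 left the count of 3 members called higher within 1.5 times. It was 1 with dim probes kept in the test (Stat3, with 20018 genes tested) and 1 at a minimum fold change of 1.5 (Edn2). No setting called a member lower by limma (0 in each; 8074 probes had an unadjusted p under 0.05). The count of pathway genes called higher, 9 as reported, was 5 with dim probes kept, 3 at a minimum fold change of 1.5 (Cebpd, Edn2 and Fos) and 6 to 9 with 1 array left out. Pathway genes called lower numbered 0 as reported, 1 with no minimum fold change and 0 to 1 with 1 array left out (1 without WT replicate 3). The Ednrb probe A_55_P2089710 turned sign under normexp (-0.00928). Members called higher numbered 2 to 3 with 1 array left out. With the replicate number as a block, 5 pathway genes were called higher, Fgf2, Ptpn6, Bcl6 and Junb being lost, and Edn2, Osmr and Stat3 were kept. Deviations of same-numbered arrays correlated by 0.25, 0.07, 0.04 and 0.11, and 3 of 4 WT arrays correlated best with their own number. The labels give no pairing and only 2 of the 4 correlations were over 0.1, so the arrays were not treated as pairs, and whether a number stands for a shared factor is not settled. Over all tested genes the split of 328 higher and 264 lower became 429 and 177 with cyclic loess. The causes were not tested. Dim signals limit Edn2 in WT, Lif, Fgf2 and the third Gfap probe.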

Other observations

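The pathway and marker genes that follow lie outside the rule for names and were chosen after their values were seen. Stat5b, which encodes a STAT factor of growth hormone and cytokine signalling, had all KO arrays above all WT arrays on 1 of its probes (0.21 on the log2 scale, SE 0.04, limma adjusted p = 0.0406) and fell short of the minimum fold change, and its other probe differed by 0.19 (limma adjusted p = 0.113).

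Another 3 listed targets of STAT3 that are used as signs of reactive glia were not called. Lcn2, the gene of lipocalin-2, had all KO arrays below all WT arrays (-0.23, SE 0.06, limma adjusted p = 0.0693). Serpina3n, the gene of a secreted protease inhibitor, differed by -0.19 (SE 0.21, limma adjusted p = 0.628), and Timp1, the gene of an inhibitor of metalloproteinases, by 0.27 (SE 0.13, limma adjusted p = 0.248). Of the astrocyte markers, Aldh1l1 had all KO arrays above all WT arrays (0.21, SE 0.04, limma adjusted p = 0.0243), short of the minimum fold change.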
